A study of Mus musculus with 2 samples.

Results

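Hedgehog pathway genes, 9 in number, were examined for R-loop peaks in primary neural stem/progenitor cells (NSPCs): Shh, Ptch1, Smo, Gli1, Gli2, Gli3, Sufu, Boc and Hhip. They were taken by symbol from the 22367 protein-coding genes of the GENCODE M1 annotation of the mouse genome build NCBI37/mm9, and a gene was given every peak that overlapped it or lay within 2 kb of it. By this rule 24 of the 22132 deposited peaks belonged to the 9 genes. R-loops are structures of 3 strands in which RNA pairs with a DNA strand and leaves the other DNA strand unpaired. The NSPCs came from the frontal brain of C57BL/6 mice at postnatal day 7. They had been kept for 2 days in 0.5 μM aphidicolin, an inhibitor of replicative DNA polymerases, a treatment known from the methods and not from the sample labels. In DRIP-seq, genomic DNA is cut with restriction enzymes, the S9.6 antibody is used to pull down RNA:DNA hybrids, and their DNA is sequenced. The data were 1 list with the position of each peak and no height, score or read count. Depth is therefore unknown, no value below has a replicate error, no difference was tested, and an order between genes is a description of this list. An untreated group was not analysed here, so the values describe aphidicolin-treated cells alone.

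Hedgehog ligands bind the receptor Ptch1, which otherwise holds the membrane protein Smo inactive. Once released, Smo acts through the primary cilium on GLI transcription factors, which the inhibitor Sufu restrains, and Ptch1, Gli1 and Hhip are themselves well known targets of GLI. In the brain, Shh maintains neural stem cells of the ventricular wall and drives the growth of granule neuron precursors in the cerebellum. Presence of an R-loop peak is no measure of expression, and expression was not analysed here.

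Peaks were found at the genes of the receptors Ptch1 and Boc, the transducer Smo, the inhibitor Sufu and the factors Gli2 and Gli3. The 3 genes without any peak were the ligand Shh, the decoy receptor Hhip and the transcription factor Gli1. Of the 9 genes 6 had at least 1 peak in the gene or within 2 kb, beside 43.1% of all protein-coding genes. Ptch1 had 9 peaks, Smo, Boc and Sufu 4 each, Gli2 2 and Gli3 1. Of the 24 peaks 23 overlapped the annotated gene itself, and the exception was a peak beyond the 3′ end of Ptch1. Peaks covered 6.34% of the bases of the 9 genes and 3.81% of those of all protein-coding genes. Ptch1 alone held 52.0% of the peak bases of the 9 genes, 30.6 of 58.8 kb. Without Ptch1, 15 peaks remained and the covered share with 2 kb on each side fell from 6.54% to 3.43%. The 3.81% of all protein-coding genes is for gene limits alone, so it is no like background for these 2 shares.

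**Figure D1:**
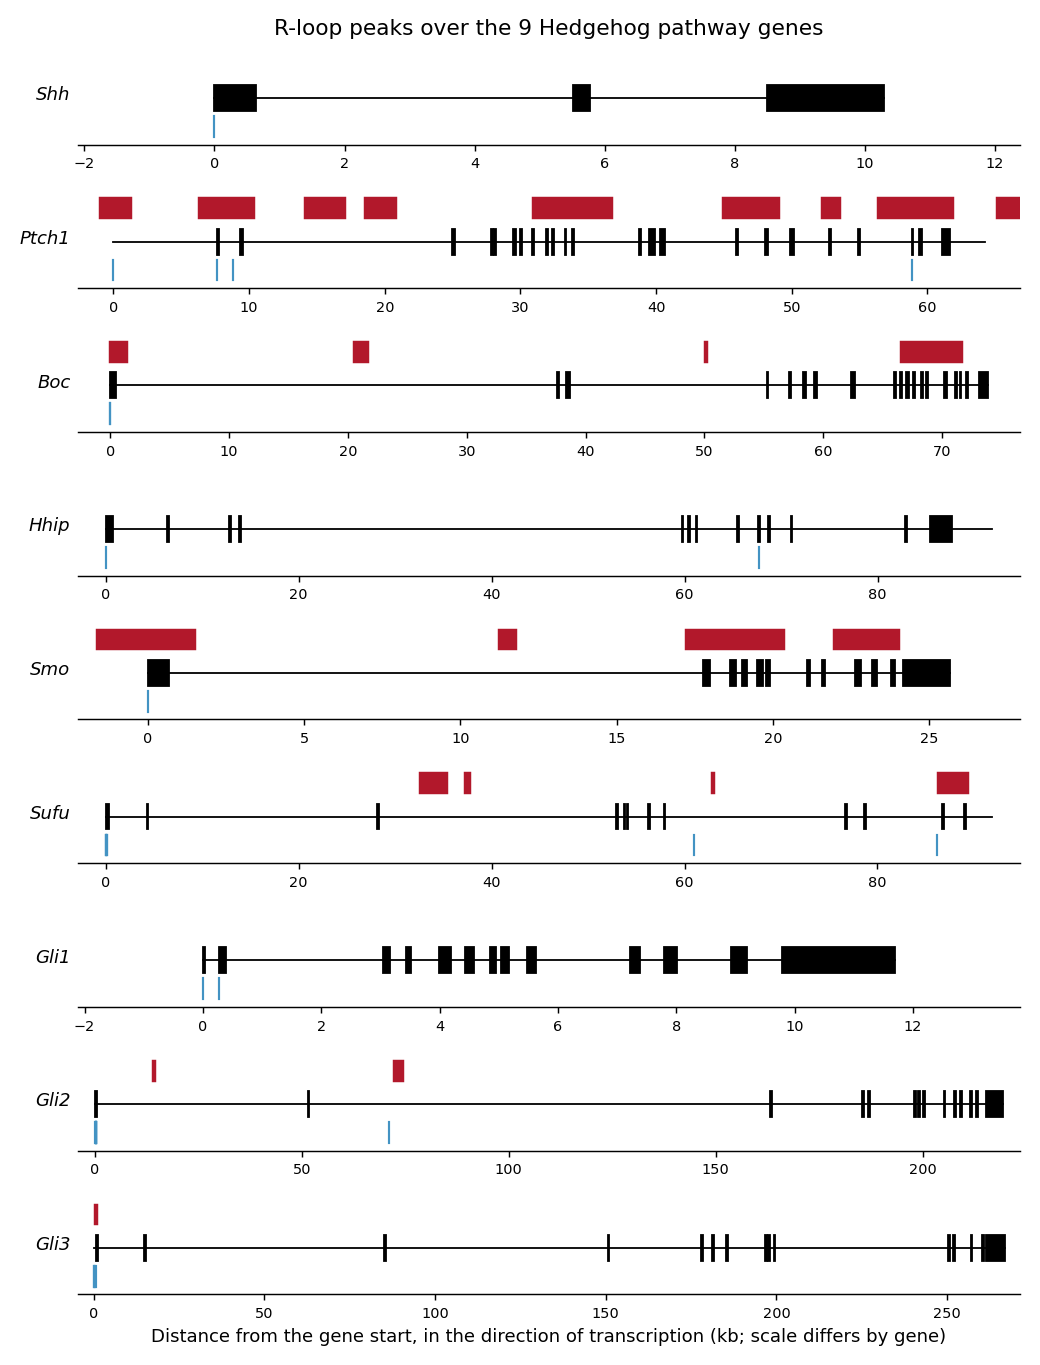
R-loop peaks (red boxes) over each of the 9 genes, drawn against the distance from the gene start in kb, in the direction of transcription and with a scale of its own for each gene. Black boxes are exons of the reference transcript, drawn at a minimum width where narrow, and blue ticks are annotated transcript starts. The 9 peaks of Ptch1 are spread from its start to beyond its end, the only peak of Gli3 lies at its 5′ end, and the rows of Shh, Hhip and Gli1 are empty.

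Longer genes held peaks more often across the whole annotation, so each gene was also set beside genes of its own length. The share of protein-coding genes with a peak was 26.4% under 10 kb, where none of the 9 falls, 48.0% from 10 to 30 kb, 56.3% from 30 to 100 kb and 65.0% from 100 kb. Of the 3 genes of 10 to 30 kb, Smo had peaks and Shh and Gli1 had none. Of the 4 genes of 30 to 100 kb, Ptch1, Sufu and Boc had peaks and Hhip had none. Both genes of at least 100 kb, Gli2 and Gli3, had peaks. The 6 genes with a peak are thus spread over the length classes, and with so few genes a share near the background cannot be told from a higher one.

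The ligand Shh, the signal that starts the pathway, lies at chr5:28783355-28793641 on the minus strand and spans 10.3 kb. It had no peak, and the nearest in the list lay 52781 bp from it on the downstream side. The DNA around its start was GC-rich to 51.8% within 2 kb, above 74.9% of protein-coding genes. The GC skew of its first 1 kb, (G − C) / (G + C) on the coding strand, was 0.0214, above 42.8% of genes. Within 500 kb of Shh there were 8 peaks, fewer than the median of 13.0 for protein-coding genes.

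Ptch1, the receptor that represses Smo, carried more R-loop peaks than any other of the 9 genes. It lies at chr13:63610261-63674474 on the minus strand, spans 64.2 kb, and is described here by its transcript Ptch1-201, which has 23 exons. Within the gene limits 8 peaks covered 43.3% of its length. That was more peaks than in 99.3%, and a larger covered share than in 98.7%, of the 4953 protein-coding genes of 30 to 100 kb. Among those of them with a peak inside the gene, its peaks covered more than in 97.6%. Across all lengths 197 protein-coding genes had at least as many peaks within their limits, and 10 of those were no longer than Ptch1, among the 18535 genes of that length or less. All 9 peaks of Ptch1 were at least 1 kb wide.

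The peaks of Ptch1 followed its alternative starts and then its body. The first covered 2.35 kb at the gene start, from −1.07 to 1.27 kb relative to it, and held the start of the transcript Ptch1-203. The second, 4.14 kb wide and from 6.24 to 10.4 kb after the gene start, covered the starts of Ptch1-201 and Ptch1-204 and the exons 1 and 2 of Ptch1-201. Its GC content of 61.3% was above that of 96.2% of all peaks. The third and the fourth, 3.04 and 2.34 kb wide, lay in intron 2. The fifth, chr13:63637745-63643603, was the widest of the 24 peaks at 5.86 kb, and overlapped exons 8 to 12. The sixth covered exons 16 and 17 over 4.21 kb, and the seventh exon 19 over 1.39 kb. The eighth, 5.59 kb wide, covered exons 21 to 23, the start of the short transcript Ptch1-202 and the end of Ptch1-201. The ninth lay outside the gene, between 65.0 and 66.7 kb from the gene start. Downstream of intron 2 the peaks of Ptch1 inside the gene thus all held exons. From the third peak to the eighth GC content lay between 46.0% and 49.4%, below the 58.3% and 61.3% of the first and the second.

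Ptch1 is a direct target of GLI, and its promoter held the letters that GLI proteins are known to prefer. The motif searched was GACCACCCA on either strand. From 1 kb upstream to 100 bp downstream of the gene start, Ptch1 was the only one of the 9 genes with it, beside 0.899% of all protein-coding genes. In the 9 genes with 2 kb on each side there were 14 matches, of which 2 lay in peaks, both of them in Ptch1. Peaks of the 9 genes held 3.40 matches per 100 kb and the whole list 1.06 per 100 kb, and the former rests on these 2 matches alone. The 3 matches at Ptch1 are shown with 10 bases on each side, on the coding strand and 5′ to 3′, with the motif or its reverse complement in capitals. They are printed so that the bases around the matches inside and outside peaks can be compared.

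Ptch1 −307, in the first peak, chr13:63674773-63674781: tggcgcggcaGACCACCCAcgccgagggc
Ptch1 +3873, in no peak, chr13:63670593-63670601: cctcagccctGACCACCCAagtcgagcag
Ptch1 +6723, in the second peak, chr13:63667743-63667751: gttgcctaccTGGGTGGTCtctctacttt

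Positions count from the gene start, coordinates give the motif, and a match is a description of letters and not of binding. Gli2 had 6 matches, Gli1, Gli3, Sufu, Boc and Hhip 1 each, and Shh and Smo none, and no peak covered any of those outside Ptch1.

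Boc, a co-receptor that binds Shh at the cell surface, had a peak at its start and 3 in its body. It lies at chr16:44485158-44559010 on the minus strand and spans 73.9 kb, with 19 exons in Boc-201. Its 4 peaks covered 11.1% of the gene, more than in 84.6% of protein-coding genes of 30 to 100 kb. Among those of them with a peak inside the gene, its peaks covered more than in 71.2%. The first, 1.49 kb wide with a GC content of 60.5%, began at −102 bp from the gene start and held exon 1 and the annotated miRNA AC124180.1 on the same strand, so it cannot be assigned to Boc alone. The second and the third lay in introns 1 and 3 and measured 1.24 and 0.313 kb. The fourth, 5.22 kb wide, covered exons 10 to 17 near the 3′ end.

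Hhip, which binds Hedgehog ligands and keeps them from Ptch1, had no peak although it is as long as Sufu. It lies at chr8:82490014-82581905 on the minus strand and spans 91.9 kb. The nearest peak was 254003 bp away, the farthest among the genes without peaks, and 5 peaks lay within 500 kb. Its first 1 kb had a GC skew of −0.0625, above 16.7% of protein-coding genes and the lowest of the 9.

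Smo, the transducer that Ptch1 represses, was the shortest gene with peaks and the second most covered. It lies at chr6:29685694-29711365 on the plus strand and spans 25.7 kb, with 12 exons. Its 4 peaks covered 28.8% of the gene. That was more peaks than in 98.2%, and a larger covered share than in 87.1%, of the 6152 protein-coding genes of 10 to 30 kb. Among those of them with a peak inside the gene, its peaks covered more than in 70.7%. The first, 3.17 kb wide with a GC content of 55.3%, reached from −1.67 to 1.50 kb around the gene start and held exon 1. The second was 0.576 kb wide and lay in intron 1. The third covered exons 2 to 6 over 3.19 kb, and the fourth exons 9 to 11 over 2.11 kb. GC skew of the first 1 kb was 0.180, above 93.3% of protein-coding genes and the highest of the 9.

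Sufu, which holds GLI proteins in the cytoplasm and restrains them, had 4 peaks and none near its start. It lies at chr19:46471386-46563294 on the plus strand and spans 91.9 kb. The peaks covered 7.58% of the gene, and the first began 32.5 kb after the gene start. The first 3 were intronic in Sufu-002, in introns 3 and 8, and measured 2.91, 0.594 and 0.261 kb. The narrowest of these was the narrowest of the 24. The fourth, 3.21 kb wide with a GC content of 56.1%, covered exons 11 and 12 and the annotated ends of Sufu-002 and Sufu-005, short of the end of the gene. Both its edges lay within 100 bp of a restriction site, at 14 and 86 bp.

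The GLI transcription factors had 2, 1 or no peaks. Gli1, an activator whose own gene is a common readout of Hedgehog signalling, lies at chr10:126766945-126778645 on the minus strand and spans 11.7 kb. It had no peak, and the nearest lay 35790 bp away on the downstream side. Its surroundings were not empty of peaks, since 29 lay within 500 kb, more than for 83.8% of protein-coding genes. Its start region was GC-rich at 55.9%, above 92.9% of genes, and the skew of its first 1 kb was 0.114, above 79.1%. Gli2, the main activator downstream of Smo, lies at chr1:120730709-120950196 on the minus strand, spans 219 kb and had 2 peaks that covered 1.41% of it. These were more peaks than in 59.1%, and a larger covered share than in 69.9%, of the 2401 protein-coding genes of at least 100 kb. Among those of them with a peak inside the gene, its peaks covered more than in 52.8%. Both were intronic, a peak of 0.676 kb in intron 1 and a peak of 2.42 kb in intron 2. Gli3, which acts mainly as a repressor, lies at chr13:15555068-15821859 on the plus strand and spans 267 kb. Its only peak, chr13:15555301-15556166, was 0.866 kb wide and began 233 bp after the gene start, over the starts of Gli3-001 and Gli3-002. It was the most GC-rich of the 24 at 70.3%, above 99.6% of all peaks, with an observed over expected CpG ratio of 1.01. The list had no other peak within 500 kb of Gli3, whose count of peaks was above that of 36.2% of the genes of its length class.

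**Figure D2:**
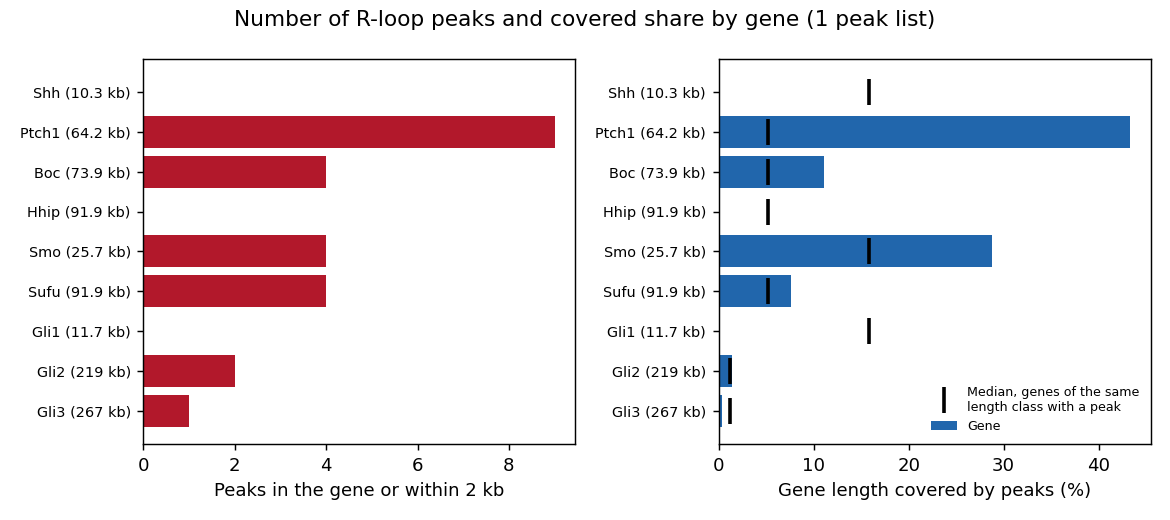
Left, the number of peaks in each gene or within 2 kb. Right, the percent of each gene's length covered by peaks (bars), with the median over protein-coding genes of the same length class that had a peak (black marks: 15.8% for 10 to 30 kb, 5.24% for 30 to 100 kb, 1.23% for at least 100 kb). Ptch1 at 43.3%, Smo at 28.8%, Boc at 11.1%, Sufu at 7.58% and Gli2 at 1.41% stand above their mark, Gli3 at 0.325% lies below it, and Shh, Hhip and Gli1 are at 0.

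Gene starts were more often in a peak than gene ends. A peak held the gene start of 3 of the 9 genes, Ptch1, Smo and Boc, beside 14.9% of protein-coding genes. A peak held the gene end of 0 of the 9, beside 10.9%. When the start of any annotated transcript was counted, Gli3 joined the 3. When any transcript end was counted, Ptch1 and Sufu each had at least 1 inside a peak. The 3 genes with a covered start had first 1 kb skews between 0.0648 and 0.180. The other 6 ranged from −0.0625 to 0.142, so the groups overlapped, and Sufu with 0.142 and Gli1 with 0.114 had a skewed start without a peak.

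The 200 bases before the gene start are shown for 2 genes whose start was in a peak, Ptch1 and Smo, and for Hhip, which had no peak, to let the letters be compared. They are on the coding strand, 5′ to 3′, with each CG in capitals.

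Ptch1, start in a peak, chr13:63674475-63674674, minus strand: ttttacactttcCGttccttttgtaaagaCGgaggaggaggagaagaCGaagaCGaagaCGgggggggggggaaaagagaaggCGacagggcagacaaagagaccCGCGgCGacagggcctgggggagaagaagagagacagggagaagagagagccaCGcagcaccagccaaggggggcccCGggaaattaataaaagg
Smo, start in a peak, chr6:29685494-29685693, plus strand: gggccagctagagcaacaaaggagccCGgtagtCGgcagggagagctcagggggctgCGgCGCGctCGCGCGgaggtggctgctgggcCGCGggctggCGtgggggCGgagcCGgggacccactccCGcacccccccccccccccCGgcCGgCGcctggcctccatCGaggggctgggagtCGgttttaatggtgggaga
Hhip, no peak, chr8:82581906-82582105, minus strand: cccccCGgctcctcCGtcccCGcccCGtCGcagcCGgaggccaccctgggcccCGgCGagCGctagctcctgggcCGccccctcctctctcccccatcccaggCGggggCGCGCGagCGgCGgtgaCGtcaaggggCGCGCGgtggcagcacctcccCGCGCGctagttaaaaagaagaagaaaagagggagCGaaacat

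CpG-rich DNA stood before starts with and without a peak. There were 11 CpG in the 200 bases of Ptch1, 19 in those of Smo and 24 in those of Hhip. GC content was 57.5%, 75.5% and 73.0% in the same order. The bases before Ptch1 had a strong excess of G over C, with a skew of 0.374, while Smo had 0.126 and Hhip −0.110. This order did not follow the presence of a peak at the start. Boc, whose start was in a peak, had 54.0% GC, 6 CpG and a skew of −0.222. Gli3, whose outermost gene start was in none, had 76.5% GC, 24 CpG and a skew of 0.229. The Gli3 peak began 233 bp after that start and covered the starts of Gli3-001 and Gli3-002, so Gli3 is no plain case without a peak.

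The 24 peaks were close to the whole list in base composition, and only with Ptch1 included were they clearly wider. Their median width was 2.34 kb, beside 1.32 kb for all 22132 peaks, and 75.0% of them were at least 1 kb wide, beside 58.7%. The 9 Ptch1 peaks had a median of 3.04 kb, and without them the median was 1.49 kb, with 9 of 15 peaks at least 1 kb wide. Median GC content was 50.6% beside 48.7%. Median skew on the coding strand was 0.0363 beside 0.0376 for the 14913 peaks whose midpoint lay in protein-coding genes of 1 strand only. The 24 were all kept, also the peak outside Ptch1. Of the 24 peaks 17 had a positive skew, 70.8% beside 65.9%. A G-quadruplex motif, here 4 runs of at least 3 G with 1 to 7 bases between them on either strand, was found in 54.2% of the 24 and 38.0% of all peaks. Per 10 kb of peak there were 4.59 motifs in the 24 and 4.49 in the whole list. Of the motifs in the 24 peaks 9 lay on the coding strand and 18 on the template strand. This split was not computed for the whole list, so it has no background beside it. Such a motif also stood in the promoter of Smo, Gli1, Gli2, Gli3, Boc and Hhip and in 36.5% of all protein-coding promoters.

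**Figure D3:**
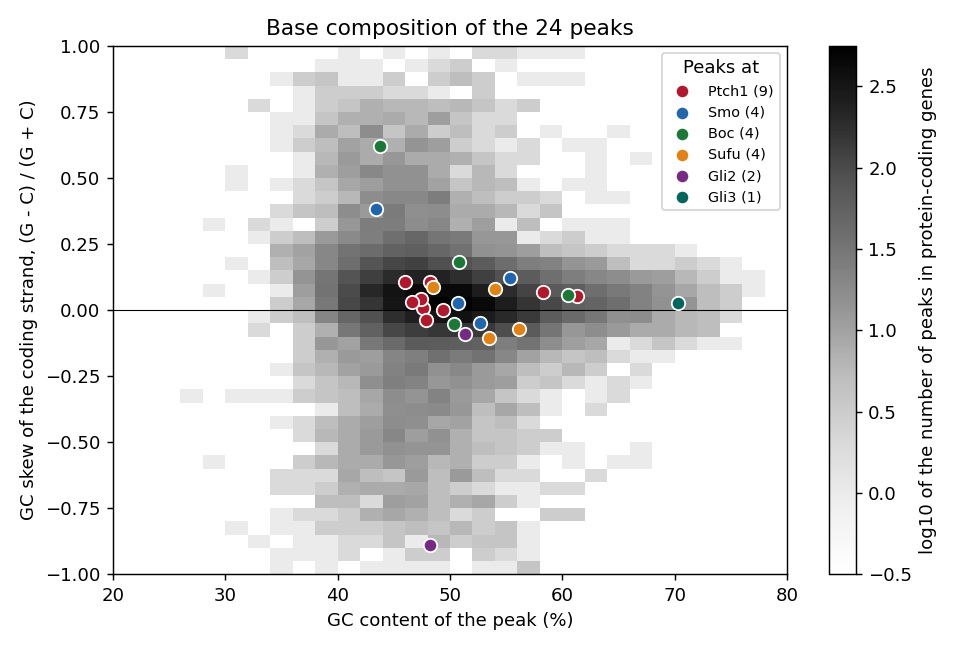
GC content in percent (horizontal) against the GC skew of the coding strand (vertical) for each of the 24 peaks, coloured by gene, over the number of peaks in protein-coding genes per bin (grey, log10 scale). Most of the 24 lie near a skew of 0. Peaks of Boc and Smo at 0.620 and 0.384 and a peak of Gli2 at −0.890 stand far from 0, and the peak of Gli3 is the most GC-rich at 70.3%.

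The 3 peaks whose skew was farthest from 0 lay in introns and were rich in short repeats. To describe this, the share of all 4-base words in a peak taken by its most frequent word and the rotations of that word was computed. The median over the list was 4.69%. It was 47.1% in the intron 1 peak of Gli2, where the word was ATCC, more than in 99.0% of all peaks. In the intron 1 peak of Boc it was 37.1%, with the word GTGT, more than in 96.4%. The intron 1 peak of Smo and the narrowest Sufu peak had 19.5% and 21.7%, also with GTGT. In the other 20 peaks the share stayed at or below 8.97%. Skew on the coding strand was −0.890 in this Gli2 peak, so C exceeded G there, and 0.620 in the Boc peak. Reads from repeats of this kind can align to several places, and whether that had a part in these peaks was not tested.

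For 5 peaks the 60 bases of the coding strand richest in G relative to C are shown, and for the Gli2 peak those richest in C relative to G. They set the G runs at the 5′ ends of Ptch1 and Gli3 and in an intron of Sufu beside the repeats in introns of Boc, Smo and Gli2. None overlaps an annotated UTR. The Gli3 stretch is intronic in Gli3-003 and Gli3-004 and lies before the starts of Gli3-001, the reference transcript, and Gli3-002. Runs of at least 3 G are in capitals, and for Gli2 each C is.

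Ptch1, first peak, before the gene start, chr13:63674585-63674644: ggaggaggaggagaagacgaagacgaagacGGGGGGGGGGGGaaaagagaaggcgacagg
Gli3, only peak, intron, chr13:15555454-15555513: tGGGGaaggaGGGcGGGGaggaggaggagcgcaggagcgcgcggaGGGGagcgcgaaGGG
Sufu, first peak, intron 3, chr19:46504288-46504347: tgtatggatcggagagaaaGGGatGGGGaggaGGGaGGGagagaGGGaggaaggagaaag
Boc, second peak, intron 1, chr16:44538305-44538364: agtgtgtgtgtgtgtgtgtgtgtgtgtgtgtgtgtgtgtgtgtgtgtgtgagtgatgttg
Smo, second peak, intron 1, chr6:29696915-29696974: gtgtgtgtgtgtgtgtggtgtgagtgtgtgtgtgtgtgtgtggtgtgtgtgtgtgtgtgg
Gli2, first peak, intron 1, chr1:120935963-120936022: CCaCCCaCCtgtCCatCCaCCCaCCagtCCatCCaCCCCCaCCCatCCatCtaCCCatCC

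In the Ptch1 stretch 33 bases were G and 5 were C, and in the Gli3 stretch 38 were G and 8 were C. The Boc and Smo stretches held 29 and 32 G and no C. In the Gli2 stretch 36 bases were C and 2 were G, the opposite of the others.

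Since the DNA was cut with restriction enzymes before the pull-down, peak edges were compared with their sites. Of the 48 edges of the 24 peaks 27.1% lay within 100 bp of a site of the 5 enzymes used, beside 28.3% of edges in the whole list. The 5 enzymes cut Ptch1 with 2 kb on each side into 100 fragments with a median length of 0.376 kb and the longest of 5.08 kb. For Gli3 the median fragment was 0.324 kb and for Hhip 0.348 kb, near the value of Ptch1, and for Gli1 it was 0.994 kb. Genes with and without peaks thus overlapped in fragment length.

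Further genes of the pathway were taken from a list arranged by role, of which 56 were found in the annotation by symbol and Disp1 was not. Of the 56 genes 40, or 71.4%, had at least 1 peak in the gene or within 2 kb, beside the 43.1% of all protein-coding genes, and 19 had the gene start in a peak, where the share over all protein-coding genes was 14.9%. By length, the shares with a peak were 66.7% in the list and 26.4% in all protein-coding genes under 10 kb, and 72.7% and 48.0% from 10 to 30 kb. They were 71.4% and 56.3% from 30 to 100 kb, and 77.8% and 65.0% from 100 kb, so the gap was smaller among longer genes. The share differed between roles. Of the kinases, ubiquitin ligases and related regulators that act on GLI 17 of 20 had a peak, of the cilium and transduction genes 9 of 11, and of the genes for ligand processing and release 4 of 5. Of the known target genes 7 of 14 had a peak, close to the background. The list includes many genes that most cells use, and the list was not matched to other genes for expression.

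Among the other ligands, Ihh had no peak and Dhh had 1 that covered 73.2% of the gene and its start. Among the other co-receptors, Cdon, the paralog of Boc, had none. Gas1, a co-receptor anchored in the membrane by a lipid, had 1 peak over its start that covered 63.9% of the gene, and Lrp2, a large endocytic receptor, had 1. The 5 further genes with the most peaks were Gsk3b, a kinase that phosphorylates GLI proteins, with 11, and Hhat, which adds palmitate to the ligands, Ift172 and Tulp3, both needed for transport in cilia, and the kinase gene Csnk1g1, with 4 each. At 13.5%, the peaks of Gsk3b covered less of its 157 kb than those of Ptch1 did of 64.2 kb.

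**Figure D4:**
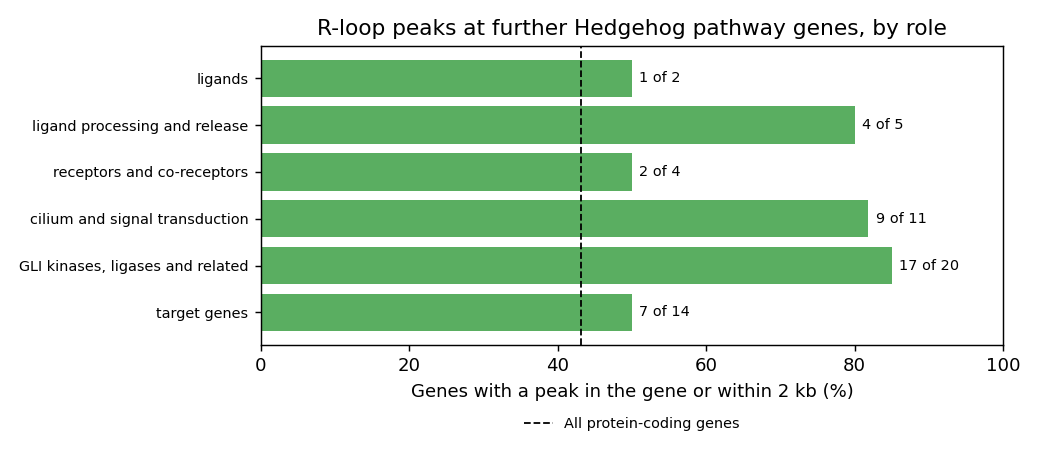
Percent of the further Hedgehog pathway genes with at least 1 peak in the gene or within 2 kb, by role, with the counts beside the bars and the share of all protein-coding genes, 43.1%, as a dashed line. The bars of cilium and GLI regulator genes reach 81.8% and 85.0%, and those of ligands, receptors and target genes 50.0%.

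Marker genes were looked up in the same way to describe the culture, with the limit that peaks are no expression. Of 10 markers of neural stem and progenitor cells 7 had a peak, 70.0% beside the 43.1% of all protein-coding genes, and of 6 of neurons 1. Of 5 markers each of oligodendrocytes, microglia and endothelium 2 had a peak, 40.0% and thus near that background. The markers, from 1.41 to 513 kb long, were not matched to the background or between cell types for gene length. The part of other cells in the peaks of the 9 genes was not tested.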

How the data were processed

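The authors prepared DRIP-seq libraries from NSPCs in 3 biological replicates, pooling 3 DRIP reactions for each library. DNA was digested with EcoRI, HindIII, BsrGI, SspI and XbaI. Per the labels and the methods, reads were trimmed with Trim Galore 0.6.6, aligned to NCBI37/mm9, freed of duplicates and passed to a Hidden Markov Model peak caller. The authors deposited 1 list of peaks, whose only other values are positions in base pairs. How replicates were combined is not given in the sources used here, and the input library was not used here. Depth per sample is unknown.

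Starts were read as 0-based and printed from 1. Peaks were compared with the mm9 sequence and GENCODE M1 genes, with overlap from 1 bp. The gene start and end are the outer limits of all annotated transcripts, and exons are numbered in the reference transcript. Percentiles are over protein-coding genes or all peaks. No test was run, since there is 1 list. The 9 genes, the wider list and the markers were chosen with earlier results of these data known, and the share of repeated words was added after seeing the data. Genes named from the wider list are all its ligands and receptors and the 5 others with the most peaks, and some items are not reported here. Overlap steps were tested on simulated data. Python 3.11.15, numpy 2.4.6, pyfaidx 0.9.0.4 and matplotlib 3.10.9 were used.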

Additional observations from a re-analysis of the deposited data

How the results depend on the processing

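With 1 list and no score, no setting could show which peaks were weak. Depth is unknown, so how far it limits which genes had a peak cannot be stated. The number of the 9 genes with a peak was 6 with gene limits alone, with 10 kb on each side and with peak midpoints, and 5 with peaks of at least 1 kb, where Gli3 lost its peak. Leaving out Ptch1, which was chosen after seeing the data, left 15 of 24 peaks and moved their median width from 2.34 to 1.49 kb. The covered share of the 9 genes with 2 kb on each side, 6.54%, was 6.34% with gene limits alone, 5.72% with 10 kb, 6.17% with peaks of at least 1 kb and 3.43% without Ptch1. The share of protein-coding genes with a peak, 43.1%, was 39.6%, 51.3% and 34.6% under the first 3 of these and 40.6% with peak midpoints. Genes with an end in a peak numbered 2 rather than 0 when any transcript end was counted and 1 with a peak within 1 kb. Median GC content, 50.6%, was 49.9% in peaks of at least 1 kb, and the mean was 51.8%. Median skew of the first 1 kb, 0.0648, was 0.00997 over 500 bp and 0.0650 over 2 kb. The share of edges near a restriction site, 27.1% within 100 bp, was 16.7% within 50 bp and 41.7% within 200 bp. Of all the alternative values, 19 stayed within the limits set for a change and 17 moved beyond them. For a share these limits are the 95% Wilson interval of the main value. With only 9 genes that interval is wide, so a count of genes that stayed within it is no sign of stability. The 17 include small shifts, such as 6.54% to 6.34% of bases and a median skew of 0.0648 to 0.0650. Their number is therefore no measure of instability. The 19 and the 17 include values given above. No paired analysis was possible because the data are 1 list without replicates.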
